A study of Mus musculus with 12 samples.

Results

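Genes of the myelinating glia were followed in mouse teratomas. They were chosen by symbol, as Olig1, Olig2, Sox10, Mbp, Mag, Mog, Cnp and Pmp22, and are 8 of the 38986 genes listed in each library. Teratomas were grown from R1 mouse ES cells that carried an empty vector (ET, the control), wild-type Dnmt3L (WT), or Dnmt3L with an arginine in place of 1 acetylated lysine (the mutants K238R and K412R). All 4 groups carried a lentiviral vector with a CAG promoter, which is active in most cell types, and were selected with puromycin, and no step of cloning single cells is described. All were injected subcutaneously, at 5000000 cells, into 8-week-old male immunodeficient NOD mice with a disrupted Prkdc gene, and tumours were taken at day 21. RNA was sequenced from 3 teratoma libraries per group, 12 in all. A teratoma is a disordered mix of tissues that the injected cells form, with host cells of the mouse in it. In such bulk RNA, fewer cells of a type and less RNA per cell cannot be told apart.

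Oligodendrocytes make the myelin of the brain and spinal cord, and Schwann cells, which come from the neural crest, make that of the peripheral nerves. Olig1 and Olig2 are paralogous basic helix-loop-helix factors of the oligodendrocyte lineage, of which Olig2 is also made by motor neuron progenitors. Sox10 is a high mobility group factor needed by both kinds of glia. Mbp, which compacts the myelin membrane, the axon-facing adhesion protein Mag, the outer-surface protein Mog and the phosphodiesterase Cnp follow when an oligodendrocyte matures. Mbp also encodes golli isoforms made outside glia, and Cnp is not restricted to glia. Pmp22 is a membrane protein of peripheral myelin that fibroblasts and epithelia also make.

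Promoters are shown for 4 of these genes, Olig2, Cnp, Mag and Pmp22. Over all 12 libraries Olig2, Cnp and Mag correlated more closely with each other than with Pmp22, a difference that was not tested. RefSeq promoter windows, on build GRCm38.p6, matched 5 of the 8 genes, with 10 windows between them. Each printed run is the 250 bases before an annotated transcript start, read 5′ to 3′ on the strand of the gene. The submitters' processing notes name GRCm39 for the counts, so these positions hold for GRCm38.p6 alone. Capitals mark a SOX-type word, ACAAAG or ACAATG, searched on both strands. The windows are chr7:30914864-30915113 on the minus strand for Mag (a neighbouring Mag window overlaps it and holds the same match), chr11:100574689-100574938 on the plus strand for Cnp, chr16:91225300-91225549 on the plus strand for Olig2, and chr11:63128732-63128981 on the plus strand for Pmp22.

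Mag: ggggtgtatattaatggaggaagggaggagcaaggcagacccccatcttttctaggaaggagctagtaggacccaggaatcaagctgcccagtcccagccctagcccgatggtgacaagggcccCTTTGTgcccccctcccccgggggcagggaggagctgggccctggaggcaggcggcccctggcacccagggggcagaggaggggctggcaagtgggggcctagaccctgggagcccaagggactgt
Cnp: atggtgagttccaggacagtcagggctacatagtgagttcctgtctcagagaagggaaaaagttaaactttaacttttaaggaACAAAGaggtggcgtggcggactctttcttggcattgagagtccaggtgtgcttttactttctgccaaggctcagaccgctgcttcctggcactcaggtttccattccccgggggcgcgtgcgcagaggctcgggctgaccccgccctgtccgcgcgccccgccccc
Olig2: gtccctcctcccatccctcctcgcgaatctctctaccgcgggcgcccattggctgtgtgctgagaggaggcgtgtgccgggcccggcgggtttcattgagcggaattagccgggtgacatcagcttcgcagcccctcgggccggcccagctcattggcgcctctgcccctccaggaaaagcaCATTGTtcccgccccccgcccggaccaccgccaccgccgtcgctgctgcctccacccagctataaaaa
Pmp22: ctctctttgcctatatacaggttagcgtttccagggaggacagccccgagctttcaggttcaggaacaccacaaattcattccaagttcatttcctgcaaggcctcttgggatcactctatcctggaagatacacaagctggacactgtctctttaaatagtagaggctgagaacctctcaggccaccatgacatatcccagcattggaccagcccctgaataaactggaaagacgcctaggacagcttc

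The Mag word lay 126 bases before the start on the opposite strand, the Cnp word 167 bases before it on the gene's own strand, and the Olig2 word 68 bases before it on the opposite strand. In all, 4 of the 10 windows held these letters, with the overlapping Mag windows sharing the same match. Another Mag window, chr7:30914322-30914571, did not hold them, and neither did the 4 Pmp22 windows, at different starts, or the Mog window. Mog, whose window is not printed, correlated with Olig2, Cnp and Mag at Pearson's r = 0.62, 0.75 and 0.78. Among themselves Olig2, Cnp and Mag had r between 0.62 and 0.90. The relation of the words to these correlations was not tested. Of all 32851 windows of this length, 25.2% held such a word, so a match is common and is given as a description of the sequence.

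Total counts per library were between 16957677 and 18546100, and a single RNA, Gm26917, took 7.47% to 13.9% of them. Levels are given as CPM, counts scaled to 1000000 per library, without length correction. Dnmt3l, the gene in the vector, was at 2.22, 0.65 and 7.62 CPM in the ET libraries, 165, 203 and 204 in those of WT, 1.89, 1.11 and 0.54 in the K238R-labelled ones and 38.9, 38.3 and 26.0 in those of K412R, here and below in the order of replicates 1, 2 and 3. Since the K238R-labelled libraries held no more of it than ET, the group is named by its label throughout. Over the 500 genes of largest variance, 6 of the 12 libraries were nearest to a library of another group, namely ET replicates 1 and 2, WT replicate 1 and all 3 K238R-labelled libraries. The closest such pair was ET replicate 2 with WT replicate 1, at a root mean square difference of 0.859 in log2(CPM + 1) against a mean of 1.504 and 1.47 from their own groups, and calls are also given without these libraries. Replicate 3 of the K238R-labelled libraries lay farthest from its own group, at a mean of 1.61, whereas the K412R libraries were nearest to each other. Differences were tested with edgeR's quasi-likelihood test over 18405 genes, all 8 among them, with Benjamini-Hochberg adjustment and a threshold of 0.05. Nothing in the labels says that replicates came from separate animals, so the p-values measure the spread between these libraries, which may be technical.

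Per kilobase of exon, the mean level over the 12 libraries was highest for Cnp at 36.3 CPM per kilobase, followed by Mbp at 24.1, Olig1 at 17.2, Sox10 at 15.8, Olig2 at 14.4 and Pmp22 at 12.9. The length used was the union of a gene's annotated exons, 8123 bases for Mbp and 2357 for Cnp. Without length correction Mbp lay above Cnp in every library, so their order depends on the length used. Mag stood at 5.46 and Mog, a late marker of mature oligodendrocytes, at 0.49. All 8 transcripts were counted in all 12 libraries, Mog with as few as 6 counts. Of the Schwann cell genes counted further below, Prx (periaxin) was at 3.65 to 8.47 CPM and Egr2 (the factor that drives peripheral myelination) at 1.51 to 4.07 CPM. Pmp2, of the same list, did not pass the filter on low counts. These bulk levels do not say which cells made the transcripts.

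**Figure D1:**
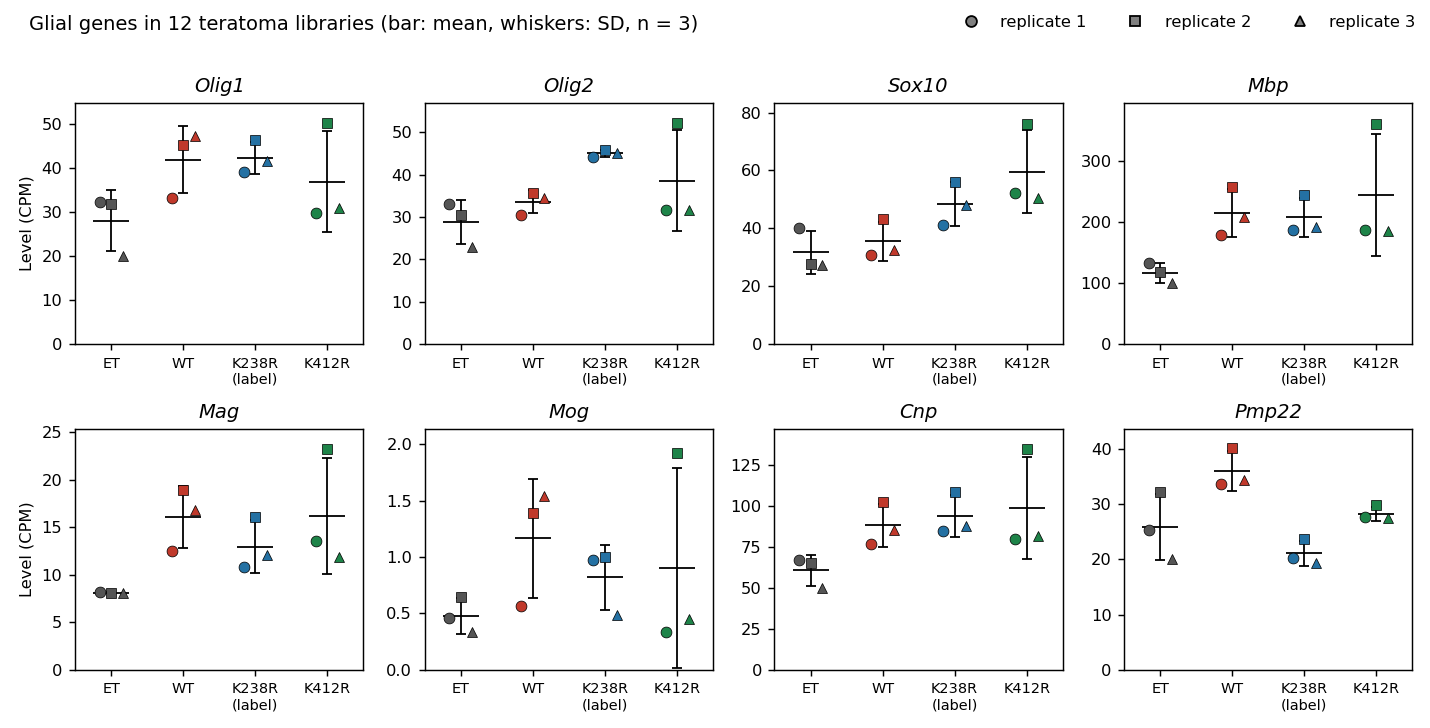
Level in CPM (vertical axes, each from 0) of the 8 genes in the 4 groups, with 1 point per library, the mean as a bar and the SD as whiskers (n = 3). Mbp, Mag and Cnp lay lowest in the 3 ET libraries, K412R replicate 2 lay highest for 7 of the 8 genes, and the mean of Pmp22 was lowest in the K238R-labelled libraries.

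The lineage factors differed in which group held the most. Olig2 was at 33.0, 30.4 and 23.0 CPM in the ET libraries, 30.5, 35.6 and 34.6 in those of WT, 44.2, 45.8 and 45.1 in the K238R-labelled ones and 31.7, 52.2 and 31.7 in those of K412R. The libraries labelled K238R were tightly grouped, with an SD of 0.81 around a mean of 45.0, and lay above every ET and every WT library. Their log2 fold change was 0.63 against ET (SE 0.20, adjusted p = 0.805) and 0.38 against WT (SE 0.20, adjusted p = 0.332). In K412R only replicate 2 was above the WT range, and without it the log2 fold change of K412R against ET fell from 0.44 to 0.13.

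Olig1, next to Olig2 in function, was at 32.3, 31.7 and 20.0 CPM in the ET libraries, 33.1, 45.2 and 47.1 in those of WT, 39.0, 46.2 and 41.5 in the K238R-labelled ones and 29.7, 50.1 and 30.8 in those of K412R. Both WT and the K238R-labelled libraries lay above all ET libraries, WT replicate 1 by less than 1 CPM, whereas K412R overlapped every other group. The log2 fold changes against ET were 0.61 for WT, 0.58 for the K238R-labelled libraries and 0.41 for K412R, each with a standard error of 0.24, and none passed (adjusted p = 0.136, 0.805 and 0.686). As WT and the K238R-labelled libraries were within 0.03 of each other on the log2 scale (standard error 0.24), no difference between them was detectable for Olig1.

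Sox10 was highest in K412R. It was at 40.1, 27.6 and 27.2 CPM in the ET libraries, 30.9, 43.3 and 32.5 in those of WT, 41.0, 56.0 and 48.2 in the K238R-labelled ones and 52.3, 76.0 and 50.5 in those of K412R. All 3 K412R libraries lay above all ET and all WT libraries, and they overlapped with the K238R-labelled libraries. K412R was 1.66-fold higher than WT (log2 ratio 0.73 ± 0.22 SE, adjusted p = 0.0901) and 1.90-fold higher than ET (0.93 ± 0.22 SE, adjusted p = 0.355). Between WT and ET the log2 difference of Sox10 was 0.20 (SE 0.22, adjusted p = 0.556), and their libraries overlapped. Without K412R replicate 2 the difference of K412R from WT was 0.49. Sox10 is also made by pigment cells and by some glandular epithelia. The 8 melanocyte markers summed to 63.2 to 73.2 CPM in ET, 65.0 to 72.9 in WT, 59.99 to 70.9 in the K238R-labelled libraries and 65.4 to 80.8 in K412R, most of it Kit. Of the 3 that passed the filter on low counts, Mitf differed by 0.53 between K412R and WT (SE 0.20, adjusted p = 0.152), Pmel by 0.72 (SE 0.48, adjusted p = 0.382) and Kit by -0.04 (SE 0.12, adjusted p = 0.865). The other 5 did not pass it, among them Tyr and Mlana with at most 0.11 and 0.22 CPM in any library, and the part of pigment cells was not tested. The 7 epithelial markers summed to 445 to 586 CPM in K412R, against 260 to 365 for ET, 287 to 379 for WT and 248 to 335 in the K238R-labelled libraries. Against WT 6 of these 7 were higher in K412R, 5 at an unadjusted p under 0.05 and 1 at the adjusted threshold, none was at 0 in any library, and their part in the Sox10 difference was not tested.

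Mbp, Mag and Cnp shared another arrangement, in which ET stood alone at the bottom. These bulk levels do not say whether oligodendrocytes or Schwann cells made the transcripts. Mbp was at 133, 117 and 99.9 CPM in the ET libraries, 179, 256 and 208 in those of WT, 187, 244 and 192 in the K238R-labelled ones and 188, 360 and 186 in those of K412R. Every library of the other 3 groups lay above every ET library, and those 3 groups overlapped. Against ET, WT was 1.88-fold higher (log2 ratio 0.91 ± 0.26 SE, adjusted p = 0.106), the K238R-labelled libraries 1.76-fold (0.82 ± 0.26 SE, adjusted p = 0.805) and K412R 2.12-fold (1.09 ± 0.26 SE, adjusted p = 0.355). Without K412R replicate 2, the highest library, the last value was 0.67.

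Mag, the adhesion protein, was at 8.13, 8.08 and 8.12 CPM in the ET libraries, 12.5, 19.0 and 16.8 in those of WT, 10.8, 16.1 and 12.1 in the K238R-labelled ones and 13.5, 23.2 and 11.8 in those of K412R. The ET libraries were nearly equal, from 137 to 146 counts, and all the others lay above them. WT was 2.02-fold higher than ET (log2 ratio 1.02 ± 0.27 SE, adjusted p = 0.104) and K412R also 2.02-fold (1.01 ± 0.27 SE, adjusted p = 0.419). The libraries labelled K238R lay 0.66 above ET (SE 0.27, adjusted p = 0.805) and 0.35 below WT (SE 0.27, adjusted p = 0.479). The difference of K412R from ET was 0.64 without K412R replicate 2.

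Cnp, the phosphodiesterase, was at 67.3, 65.2 and 50.0 CPM in the ET libraries, 77.0, 102 and 85.5 in those of WT, 85.1, 109 and 87.8 in the K238R-labelled ones and 79.9, 135 and 81.8 in those of K412R. As for Mbp, every other library lay above every ET library, with log2 fold changes against ET of 0.57 for WT, 0.61 for the K238R-labelled libraries and 0.72 for K412R (standard error 0.22 in each, adjusted p = 0.129, 0.805 and 0.440). The last value was 0.40 without K412R replicate 2. Mog was counted 8, 11 and 6 times in the ET libraries, 10, 25 and 27 times in those of WT, 18, 18 and 9 times in the K238R-labelled ones and 6, 34 and 8 times in K412R. Its groups all overlapped, and with so few counts the WT to ET log2 fold change, 1.31, had a standard error of 0.67 (adjusted p = 0.207), so a difference was not detectable with this error.

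Pmp22 had another order of groups, with the mean of WT highest and that of the K238R-labelled libraries lowest. It was at 25.3, 32.2 and 20.1 CPM in the ET libraries, 33.6, 40.2 and 34.4 in those of WT, 20.3, 23.7 and 19.4 in the K238R-labelled ones and 27.7, 29.8 and 27.5 in those of K412R. WT lay above all 9 other libraries, the K238R-labelled libraries lay below every WT and K412R library, and ET spanned the range between. The log2 fold change of the K238R-labelled libraries against WT was -0.81 (SE 0.16, adjusted p = 0.0698), 0.57 times the WT level, which is the lowest adjusted p of any of the 8 genes in the 6 comparisons. DESeq2 called it (adjusted p = 0.000693), and over all alternatives the adjusted p lay between 0.000693 and 0.285. WT against ET gave 0.51 (SE 0.16, adjusted p = 0.111), K412R against WT -0.37 (SE 0.16, adjusted p = 0.197) and K412R against the K238R-labelled libraries 0.45 (SE 0.16, adjusted p = 0.295).

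Markers of fibroblasts, which also make Pmp22, were followed beside it. The summed level of 9 such markers, among them the collagen genes Col1a1, Col1a2 and Col3a1, was 2328 to 5214 CPM for ET, 4042 to 5992 for WT, 1835 to 2412 for the K238R-labelled libraries and 2467 to 3601 for K412R. In the K238R-labelled libraries all 9 were lower than in WT, 6 at an unadjusted p under 0.05 and 1 at the adjusted threshold. They did not all go one way in 2 other comparisons. In WT against ET 6 were higher and 3 lower, with Postn at 0.43 (SE 0.12, adjusted p = 0.105) and Dcn at -0.55 (SE 0.18, adjusted p = 0.113), and in K412R against WT 7 were lower and 2 higher, with Dcn at 0.45 (SE 0.18, adjusted p = 0.172). None of the 9 was at 0 in any library. The part of these cells in the Pmp22 result was not tested.

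Of the 8 genes, 0 passed the adjusted threshold in WT against ET with edgeR, where 0.0489% of all genes did. At an unadjusted p under 0.05 there were 5 (Olig1, Mbp, Mag, Cnp and Pmp22), all higher in WT, against 29.1% of all genes, and the same 5 did not overlap between the groups, against 20.8%. DESeq2 called 3 of them (Mbp, Mag and Pmp22), as it did 10.3% of the genes it tested. The median log2 fold change of the 8 genes was 0.59 and that of all genes -0.01. Summed levels of the 10 astrocyte markers were 1079 to 1924 CPM in ET and 1944 to 2529 in WT, none of them at 0 in any library, with 6 higher in WT at an unadjusted p under 0.05. Of 13 neuron markers 7 were higher and 1 lower in WT at that p, with a median of 0.50, and their sum was 3540 to 3736 CPM in ET and 3445 to 4657 in WT. All 9 skeletal muscle markers were higher in WT, 3 of them at that p, with a median of 1.95 and a sum of 259.6 to 738 CPM in ET and 499.98 to 4219 in WT. None of these neuron and muscle markers was at 0 in any library, and the part of the 3 cell types in the difference was not tested. Without ET replicate 2 edgeR called 3 of the 8 (Mbp, Mag and Pmp22), without WT replicate 1 it called 2 (Mbp and Mag), and without both it called 5. These 2 libraries lay nearest each other across the groups, so leaving them out can itself widen the difference between WT and ET.

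In the K238R-labelled libraries against ET, 6 of the 8 genes passed an unadjusted p of 0.05, all but Mog and Pmp22 and all higher, where 5.58% of all genes did. The same 6 did not overlap between the groups, against 9.18%. With edgeR 0 of the 8 passed the adjusted threshold and 0% of all genes did, and with DESeq2 0 of the 8 and 0.0464%. The median of the 8 was 0.62 and that of all genes -0.02. In K412R against ET, 5 genes (Olig2, Sox10, Mbp, Mag and Cnp) passed an unadjusted p of 0.05, all higher, against 7.86% of all genes, and 4 of them, without Olig2, did not overlap, against 10.8%. Here too 0 passed the adjusted threshold with edgeR (0% of all genes), while DESeq2 called Sox10 and Mbp (0.473%), and the median of the 8 was 0.82 against -0.02. The 3 comparisons with ET share its libraries, and ET replicate 3 was the lowest library for 6 of the 8 genes.

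Among WT and the mutant groups the shares of the 8 genes without overlap were near or below those of all genes. In the K238R-labelled libraries against WT, 1 gene (Pmp22) passed an unadjusted p of 0.05, against 17.6% of all genes, and 2 (Pmp22 and Olig2) did not overlap, against 24.0%. With edgeR 0 passed the adjusted threshold (0.174% of all genes), and DESeq2 called Pmp22 (4.10%). Without ET replicate 2, without ET replicate 3, or without both ET replicate 2 and WT replicate 1, edgeR called Pmp22 as well. In K412R against WT, 2 genes, Sox10 higher and Pmp22 lower, passed an unadjusted p of 0.05, against 22.8%, and these 2 did not overlap, against 31.1%. With edgeR 0 passed the adjusted threshold (2.02%), and DESeq2 called Sox10 (9.10%). In K412R against the K238R-labelled libraries only Pmp22 passed an unadjusted p of 0.05 (11.9% of all genes) and did not overlap (19.0%), and 0 passed the adjusted threshold with edgeR (0.0217%) or DESeq2 (1.89%). For any difference among the 4 groups, 0 of the 8 passed with edgeR (0.168% of all genes), 6 had an unadjusted p under 0.05 (22.2%), and DESeq2 called Sox10, Mbp, Mag and Pmp22 (10.2%).

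**Figure D2:**
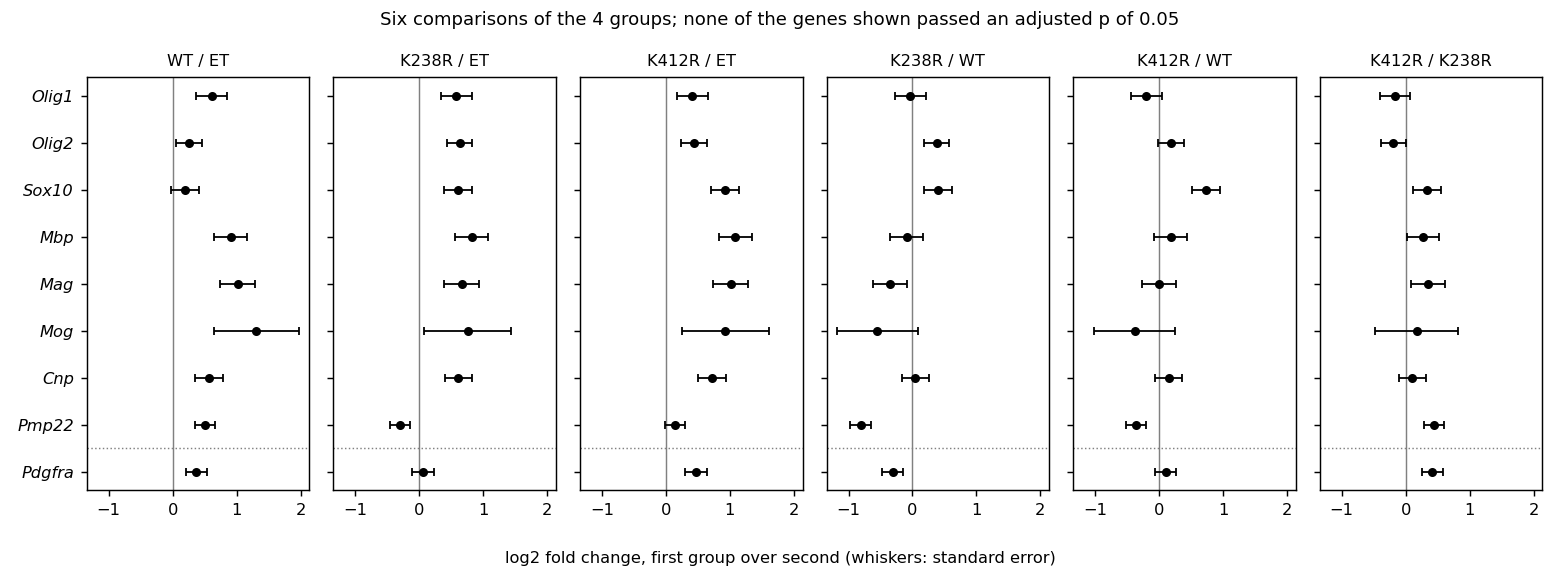
Log2 fold change (horizontal axis, first group over second, whiskers 1 standard error) of the 8 genes and of Pdgfra in the 6 comparisons. Against ET nearly all points lie right of 0, Pmp22 lies left of 0 in the K238R-labelled libraries against WT, and none passed the adjusted threshold with edgeR.

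Pdgfra, the growth factor receptor of oligodendrocyte precursors and also of mesenchymal cells, was at 84.6, 106 and 65.3 CPM in the ET libraries, 95.1, 121 and 108 in those of WT, 94.8, 98.2 and 75.7 in the K238R-labelled ones and 110, 115 and 128 in those of K412R, and K412R lay above the other mutant group and above ET with no overlap. Its log2 fold change of K412R against ET was 0.47 (SE 0.17, adjusted p = 0.547).

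**Figure D3:**
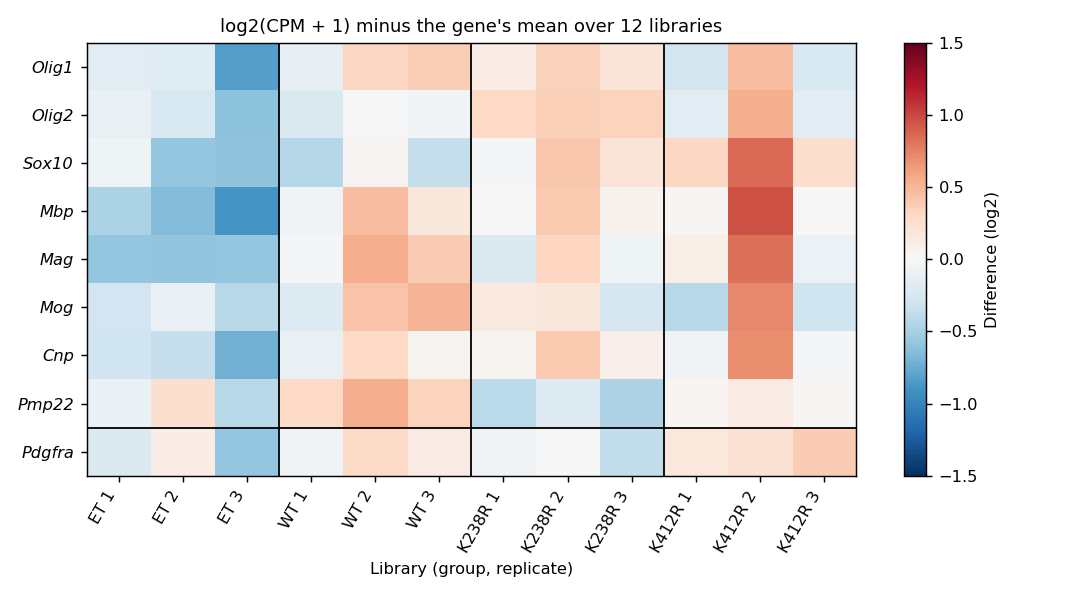
Each cell gives log2(CPM + 1) of a gene in a library minus its mean over the 12 libraries (colour scale in log2 units), with lines between the groups and between the 8 genes and Pdgfra. The ET columns are low for Mbp and Mag, and the column of K412R replicate 2 is high for all genes but Pmp22 and Pdgfra, where it differs little from the mean.

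Wider lists of the glial lineages were counted in the same fit. Their counts at an unadjusted p under 0.05 stand beside 29.1% of all genes in WT against ET, 17.6% in the K238R-labelled libraries against WT, 22.8% in K412R against WT, 5.58% and 7.86% in the K238R-labelled libraries and in K412R against ET, and 11.9% between the mutant groups. Of 25 central myelin genes, 4 of which are among the 8, 24 were tested. In WT against ET, 15 were higher and 2 lower at an unadjusted p under 0.05, the median log2 fold change was 0.80, and 0 passed the adjusted threshold with edgeR while DESeq2 called 7. Mobp, a small basic protein of central myelin, had the largest difference at 2.02 (SE 0.64, adjusted p = 0.111). Against WT, the K238R-labelled libraries had 21 of the 24 lower, 4 of them at an unadjusted p under 0.05, with a median of -0.32 (all genes 0.00) and the largest differences in Mobp (-1.83, adjusted p = 0.185) and Mal, a lipid raft protein of myelin (-1.82, adjusted p = 0.0894). In K412R against WT the same genes had a median of 0.00 and in K412R against ET one of 0.68, with 9 higher and 0 lower at an unadjusted p under 0.05 and the largest difference in the connexin gene Gjb1 (1.73 ± 0.53 SE, adjusted p = 0.445). With edgeR 0 of them passed the adjusted threshold in any of the 6 comparisons, and DESeq2 called 3 in K412R against ET, 2 in the K238R-labelled libraries against WT and 1 in K412R against the K238R-labelled libraries. At an unadjusted p under 0.05 the K238R-labelled libraries had 6 higher and 1 lower than ET, and K412R had 3 higher and 0 lower than the K238R-labelled libraries.

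There were 18 precursor genes, none of them among the 8. In WT against ET, 7 were higher and 3 lower at an unadjusted p under 0.05, with a median of 0.26 and 0 past the adjusted threshold with edgeR (6 with DESeq2). Among the lower ones was Nkx6-1, a factor of ventral neural progenitors (-1.26 ± 0.33 SE, adjusted p = 0.103), which differed by 1.23 in the opposite sense in the K238R-labelled libraries against WT (adjusted p = 0.114). In K412R against ET, 9 were higher and 0 lower at an unadjusted p under 0.05, with a median of 0.26. Enpp6, an enzyme of oligodendrocytes that have just begun to differentiate, was at 8.58, 7.37 and 6.62 CPM in the ET libraries, 11.5, 18.3 and 13.1 in those of WT, 15.8, 15.1 and 14.9 in the K238R-labelled ones and 16.3, 23.3 and 18.5 in those of K412R. All ET libraries were below all others. The log2 difference was 0.95 for WT (SE 0.20, adjusted p = 0.0990), 1.38 for K412R (SE 0.20, adjusted p = 0.191) and 1.002 for the K238R-labelled libraries (SE 0.20, adjusted p = 0.718). Bcas1, a gene of premyelinating oligodendrocytes, was 1.11 higher in K412R than in ET (SE 0.22, adjusted p = 0.274). It was also higher than ET in WT by 0.63 (SE 0.21, adjusted p = 0.116) and in the K238R-labelled libraries by 0.92 (SE 0.21, adjusted p = 0.780). At an unadjusted p under 0.05, 5 precursor genes were higher and 0 lower in the K238R-labelled libraries than in WT, and 5 were higher and 1 lower in K412R than in WT. With edgeR 0 of the 18 passed the adjusted threshold in any of the 6 comparisons. DESeq2 called 3 in K412R against ET, 1 in the K238R-labelled libraries against ET, 3 in each mutant group against WT and 0 between the mutant groups. Enpp6 was among those called against ET (DESeq2 adjusted p = 0.00171 for WT, 2.6e-06 for K412R and 0.0105 for the K238R-labelled libraries). Against ET, Bcas1 was called in WT (0.0484) and K412R (0.000784) but not in the K238R-labelled libraries (0.0620).

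Of 24 Schwann cell genes, 23 were tested, with Sox10 and Pmp22 among them. In the K238R-labelled libraries against WT, 8 were lower and 2 higher at an unadjusted p under 0.05, with a median of -0.28 and 0 past the adjusted threshold with edgeR (3 with DESeq2). At that p, 6 were higher and 1 lower in WT than in ET, 4 higher and 1 lower in K412R than in ET, and 7 higher and 3 lower in K412R than in the K238R-labelled libraries. The 7 of 23 in WT against ET are near the share of all genes. Of the Schwann cell genes DESeq2 called 5 in WT against ET. It called 2 in each comparison of K412R, with WT, with ET and with the K238R-labelled libraries. Dhh, the hedgehog ligand that Schwann cells secrete, differed from WT in the K238R-labelled libraries by -1.52 (SE 0.40, adjusted p = 0.111), and it differed by 1.84 between K412R and the K238R-labelled libraries (SE 0.40, adjusted p = 0.122). L1cam, an adhesion molecule of axons and of nonmyelinating Schwann cells, fell in K412R against WT. It stood at 215, 283 and 272 CPM in WT and at 134, 154 and 165 in K412R, with no overlap (log2 ratio -0.79 ± 0.17 SE, adjusted p = 0.0385). The 13 neuron markers, whose cells also make L1cam, summed to 3445 to 4657 CPM in WT and 2699 to 3143 in K412R. All 13 were lower in K412R, 8 of them at an unadjusted p under 0.05, none was at 0 in any library, and their part in the result was not tested. The call of L1cam did not hold in 8 of the 12 leave-one-out fits, those without ET replicate 1, WT replicates 2 or 3, replicates 2 or 3 of the K238R-labelled libraries or any K412R replicate. The log2 fold change lay between -0.92 and -0.71 over the 12 fits, and the adjusted p reached 0.179 over all alternatives.

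Of 31 ligands, receptors and inhibitors that steer glial differentiation, 1 passed the adjusted threshold with edgeR, Gpr37 in K412R against WT. DESeq2 called 6 of them in WT against ET, 3 in the K238R-labelled libraries against WT, 6 in K412R against WT and 2 between the mutant groups. Gpr37, a receptor that holds back the maturation of oligodendrocytes, was at 43.0, 26.4 and 33.4 CPM in the ET libraries, 19.4, 20.3 and 18.6 in those of WT, 36.3, 27.6 and 37.1 in the K238R-labelled ones and 42.1, 33.9 and 42.4 in those of K412R. All WT libraries lay below all 9 others. It rose in K412R against WT by 1.001 on the log2 scale (SE 0.17, adjusted p = 0.0179), whereas WT against ET gave -0.79 (SE 0.17, adjusted p = 0.0990). Leaving out 1 library ended the call of K412R against WT in 4 of 12 fits, those without WT replicates 2 or 3 or K412R replicates 1 or 3, with log2 fold changes between 0.94 and 1.08 over the 12 and an adjusted p of at most 0.104 over all alternatives.

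Shh, the ventral signal that induces Olig2 in the neural tube, was lowest in WT, at 45.6, 25.3 and 15.7 CPM, against 146, 57.3 and 164 in ET, 128, 69.5 and 103 in the K238R-labelled libraries and 116, 69.3 and 133 in K412R. The WT libraries lay below all 9 others. WT against ET gave -2.07 (SE 0.44, adjusted p = 0.0990), the K238R-labelled libraries against WT 1.76 (SE 0.43, adjusted p = 0.104) and K412R against WT 1.86 (SE 0.43, adjusted p = 0.0524). Olig2 had a mean of 33.6 CPM in WT and 28.8 in ET (log2 fold change 0.25, SE 0.20, adjusted p = 0.401). The relation of Shh to Olig2 in these teratomas was not tested. Over the 31 genes, 8 were higher and 4 lower in K412R than in WT at an unadjusted p under 0.05, and the median was 0.15. In WT against ET 7 were higher and 7 lower at that p.

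The 8 genes were correlated with one another across the 12 libraries, as log2(CPM + 1), in 28 pairs. The 21 pairs without Pmp22 had Pearson's r between 0.35 and 0.98, with a median of 0.79, and 19 of them had a permutation p, adjusted over the 28, under 0.05, all but Olig1 with Sox10 and Sox10 with Mog. The closest pair was Mbp with Cnp, with r = 0.98 and Spearman's rho = 0.97 (permutation p = 1e-05 for both, the smallest these permutations can give, adjusted p = 0.00014 and 0.00028), and r = 0.96 without ET replicate 3 and K412R replicate 2, the libraries farthest from the median. Mbp with Mag gave r = 0.95 and rho = 0.92 (permutation p = 1e-05 and 7e-05, adjusted p = 0.00014 and 0.000653), and 0.94 without those libraries. Olig1 with Olig2 gave r = 0.85 and rho = 0.83 (permutation p = 0.00059 and 0.00132, adjusted p = 0.0024 and 0.00462), and r = 0.68 without them. Over the 21 pairs r without the 2 farthest libraries lay between -0.21 and 0.96. Olig2 with Mag had r = 0.62 and rho = 0.63 (permutation p = 0.0323 and 0.0324, adjusted p = 0.0477 for both), and r = 0.26 without ET replicate 3 and K412R replicate 2, so that this relation rests on those libraries. Within groups, after each group's mean was taken off, the first 3 pairs had r = 0.98, 0.92 and 0.94. The libraries share a total to which the counts are scaled, and replicates share a group. Libraries were permuted across the groups, so the permutation p does not separate group differences from variation within groups. The share of other gene pairs that correlate as closely was not computed.

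The 7 pairs with Pmp22 had r between -0.13 and 0.45, and 0 of them passed an adjusted permutation p of 0.05. Within groups their r lay between 0.37 and 0.66, so that with Olig2 the pooled r of -0.13 stood beside a within-group r of 0.53. The difference between the pairs with and without Pmp22 was not tested.

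**Figure D4:**
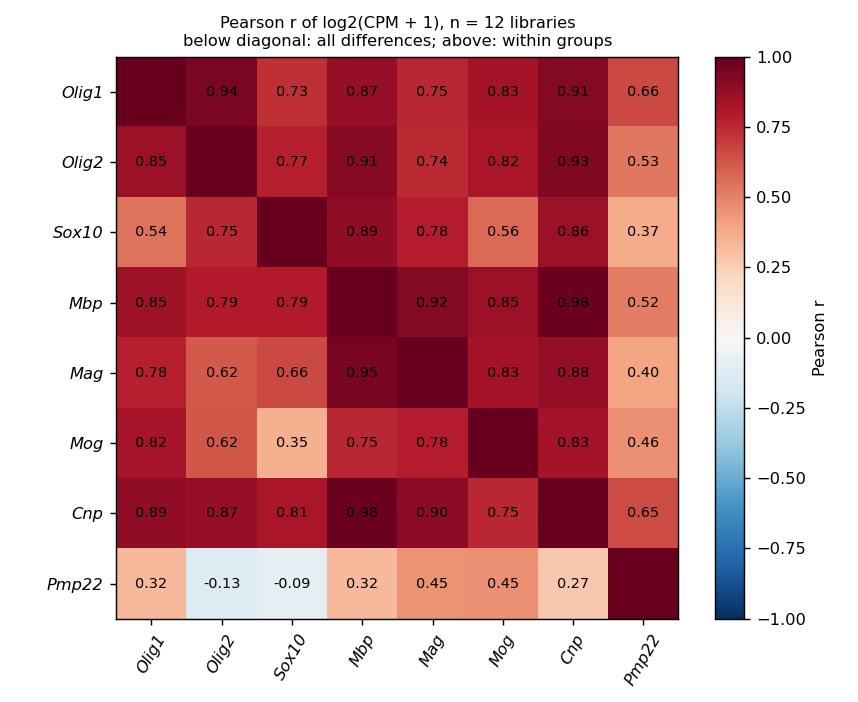
Pearson's r between the 8 genes across 12 libraries, of log2(CPM + 1) below the diagonal and after removal of each group's mean above it (colour scale from -1 to 1). The Pmp22 row below the diagonal runs from -0.13 to 0.45, while Mbp with Cnp reaches 0.98.

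The genes most like 4 of the 8 over the 12 libraries, by Pearson's r of log2(CPM + 1) among the 18397 other tested genes, are given as a description. For Olig2 they were Prkg2 (0.92), Mapk8ip2 (0.90) and Bcl2l1 (0.89). For Sox10 they were Bcas1 (0.93), Eva1c (0.91) and Zfp488 (0.91), of which Bcas1 and Zfp488 stood on the precursor list. For Mbp they were Neu4 (0.98), Gpr17 (0.96) and Sirt2 (0.95), of which Gpr17 stood on the precursor list. For Pmp22 they were Htra3 (0.97), Kcna1 (0.95) and Angptl4 (0.94), none of them on a glial list.

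Ratios of counts within a library, which need no scaling, set the myelin genes against the lineage factors. They were chosen after the levels had been seen and carry no test. Mbp over Olig2 was 4.01, 3.87 and 4.35 for ET, 5.87, 7.20 and 6.005 in WT, 4.22, 5.32 and 4.26 in the K238R-labelled libraries and 5.92, 6.88 and 5.86 in K412R. The 6 WT and K412R libraries lay above the 6 ET and K238R-labelled ones. Mag over Olig2 was 0.25 to 0.35 in ET and 0.24 to 0.35 in the K238R-labelled libraries, against 0.41 to 0.53 in WT and 0.37 to 0.44 in K412R, and Cnp over Olig2 was 2.04 to 2.18 and 1.92 to 2.37 against 2.47 to 2.87 and 2.52 to 2.58, with the same division. With Sox10 as the divisor only WT stood apart: Mbp over Sox10 was 5.79 to 6.40 in WT, 3.30 to 4.26 in ET, 3.98 to 4.55 in the K238R-labelled libraries and 3.59 to 4.73 in K412R. With Olig1 as the divisor the division seen with Olig2 did not hold. Mbp over Olig1 was 3.70 to 5.01 in ET, 4.41 to 5.68 in WT, 4.63 to 5.27 in the K238R-labelled libraries and 6.04 to 7.18 in K412R, so that K412R stood apart and the other groups overlapped. Cnp over Olig1 was 1.81 to 2.32 in WT and overlapped ET (2.06 to 2.51) and the K238R-labelled libraries (2.12 to 2.35).

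**Figure D5:**
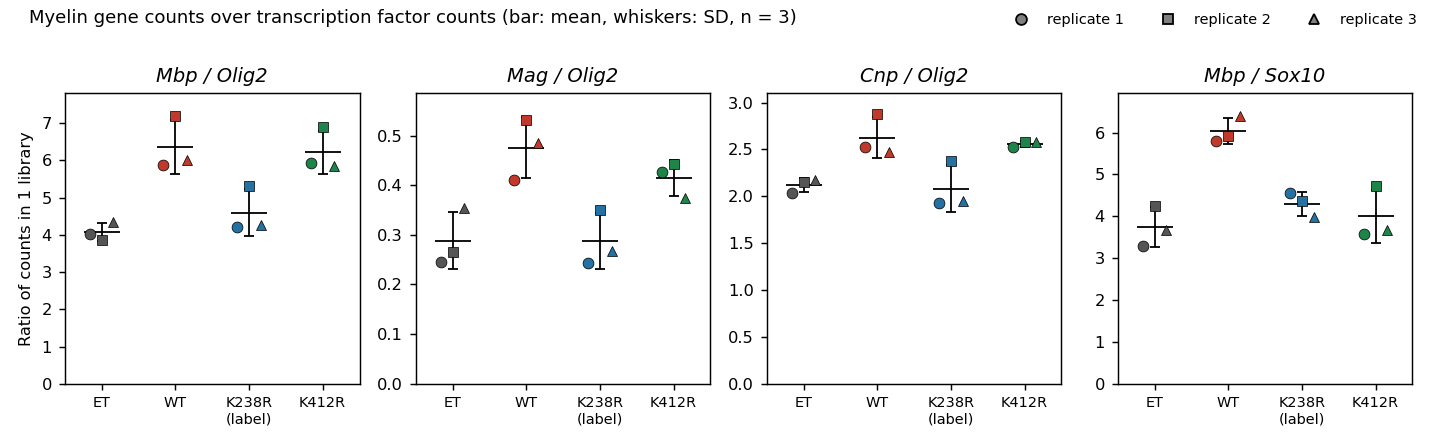
Ratio of 2 counts in the same library (vertical axes, each from 0) for Mbp, Mag and Cnp over Olig2 and for Mbp over Sox10, with 1 point per library, the mean as a bar and the SD as whiskers (n = 3). WT and K412R lie above ET and the K238R-labelled libraries in the 3 ratios over Olig2, and WT alone lies above the rest for Mbp over Sox10.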

How the data were processed

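Per the labels and the study's methods, poly(A) RNA was made into CORALL libraries, read from both ends, trimmed with fastp, mapped with STAR and quantified with Salmon. The submitters' processing notes also name GATK and GRCm39. The deposited files hold, for each library, the estimated count of each gene, in whole numbers and not normalized, so the authors' normalization is absent and CPM was computed here. Near-identical transcripts can share reads in such estimates.

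Groups came from the sample titles. Counts were tested with edgeR 4.0.16 in R 4.3.3 (TMM scaling, filterByExpr, quasi-likelihood test, 1 mean per group over 12 libraries, 18405 of 38986 genes), while the study used DESeq2, here version 1.42.0 as an alternative. The test was checked on simulated data, where it called 155 of 200 genes changed 4-fold, with 11 false calls among 166. Smaller changes were not simulated. A gene was called at an adjusted p under 0.05. Correlations used log2(CPM + 1) and 100000 permutations. Exon lengths came from GENCODE M21.

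The 8 genes and all lists were chosen with earlier results of these data known. From the wider lists, the genes called were named, or otherwise at most 2 with the largest difference among those changed 2-fold at an unadjusted p under 0.05, and always Pdgfra. Some genes that this rule names are not reported here. Prx, Egr2 and Pmp2 were named after their values were seen. For Olig2, Sox10, Mbp and Pmp22 the 3 most correlated genes were named. Ratios were chosen after the data were seen. Alternatives were another scaling, no filter, DESeq2, the 2 groups alone, a replicate block, exclusion of Gm26917 and of single libraries. ET replicate 2 and WT replicate 1 were also left out together.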

Additional observations from a re-analysis of the deposited data

How the results depend on the processing

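With edgeR none of the 8 genes passed the adjusted threshold in any comparison, and 19 of 132 recomputed counts differed from 0. For WT against ET the count was 3 with DESeq2 and 3 with the replicate block (Mbp, Mag and Pmp22), 5 with ET replicate 2 and WT replicate 1 left out together (Olig1, Mbp, Mag, Cnp and Pmp22), and between 0 and 3 with 1 library left out. For the K238R-labelled libraries against WT it was 1 (Pmp22) with no filter, with DESeq2, with the 2 groups alone, with the replicate block and with both libraries left out, and between 0 and 1 with 1 library left out (1 without ET replicate 2 or 3). For K412R against WT it was 1 with DESeq2 (Sox10) and 1 with both libraries left out (Pmp22), and for K412R against ET it was 2 with DESeq2 (Sox10 and Mbp). For any difference among the groups it was 4 with DESeq2, 1 with the replicate block, 1 with both libraries left out and between 0 and 1 with 1 library left out (1 without ET replicate 2), Pmp22 in each case with a count of 1. The 2 libraries left out together were chosen for lying close across the groups, so those counts are no independent check. The cause of these changes was not tested.

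Of 437 recomputed log2 fold changes, 0 changed sign and 30 newly passed the threshold. Of 64 recomputed group means, 6 moved by more than 1 SD, all when Gm26917 was taken out of the total, which raises every CPM. Replicate numbers are shared by the groups, and whether they pair the libraries was left undecided. The main fit did not use them. Deviations of same-numbered libraries correlated between -0.09 and 0.27 for number 1, and between 0.01 and 0.53 for number 2. For number 3 the range was -0.37 to 0.14, and 6 of 12 libraries correlated best with their own number. The block moved the genes called over the whole table from 9 to 917 in WT against ET, from 32 to 208 in the K238R-labelled libraries against WT and from 372 to 1155 in K412R against WT. In K412R against the K238R-labelled libraries the number fell from 4 to 0, and for both mutant groups against ET it stayed at 0. With 3 libraries a group, K412R replicate 2 sets the upper end of 7 of the 8 genes, and Mog rests on 6 to 34 counts.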
